A study of Homo sapiens with 16 samples.

Results

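Among the 16 RNA-seq libraries of the study, 2 shared a profile that the other 14 did not: the intermediate filament gene VIM was high, and the epithelial genes CDH1 and KRT19 were near 0. These 2 libraries, shCTL DMSO replicate 1 and shCTL EPZ-5676 with HMBA replicate 1, are called the VIM-high profile here. They were set against the 4 replicate 2 libraries without HMBA, which are shCTL DMSO, shNELFE DMSO, shCTL EPZ-5676 and shNELFE EPZ-5676. The study labels all 16 libraries as HCT116, an established line from a human colorectal carcinoma. Its design crossed 2 short hairpin RNAs, a control (shCTL) and 1 against NELFE, a subunit of the negative elongation factor that holds paused RNA polymerase II, with 4 treatments: the vehicle DMSO, the DOT1L inhibitor EPZ-5676, HMBA (hexamethylene bisacetamide), and both compounds. There were 8 groups of 2 libraries. All were poly(A) RNA libraries that keep the strand, and every group carries a hairpin, the controls included. The labels give no dose or time that separates the groups, and nothing in them says that the 2 replicates of a group came from separate cultures.

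The members were picked from the counts themselves, for VIM, CDH1 and KRT19 and for the likeness of the 2 libraries. Every gene of the comparison therefore shares its source with the choice, so levels are described below and no p-value is given. Levels are CPM, read counts scaled to a common library total. Profile values are given with shCTL DMSO before shCTL EPZ-5676 with HMBA, and comparison values in the order shCTL DMSO, shNELFE DMSO, shCTL EPZ-5676 and shNELFE EPZ-5676. A gene counts as higher or lower where the mean levels were at least 4-fold apart and no library of either set overlapped the other. By that rule 2136 of 15686 genes (13.6%) were higher and 2112 (13.5%) were lower in the VIM-high profile, 27.1% in all. Those shares are the background for every list below, and they describe how far apart the chosen sets are.

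Epithelial cells hold together through adherens junctions built on E-cadherin (CDH1), tight junctions built on claudins, and desmosomes anchored to keratin filaments. In epithelial to mesenchymal transition, transcription factors of the ZEB, SNAI and TWIST families bind short E-box sequences and repress these genes, N-cadherin (CDH2) and vimentin take over, and cells secrete fibrillar matrix. GRHL2, OVOL1, ELF3 and the splicing factors ESRP1 and ESRP2 hold the epithelial state. Cell lines of many origins carry such programmes in part. Which cells gave the profile libraries is not stated in the labels beyond HCT116, and is not inferred here.

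The 2 profile libraries held 19626522 and 21288388 counts, and the 4 comparison libraries 13428893 to 15804336, so 3 counts stood for 0.141 to 0.153 CPM in the profile and 0.190 to 0.223 CPM in the comparison. Over log2(CPM + 1) of the genes tested, Pearson's r was 0.994 within the profile, 0.990 to 0.994 within the 6 pairs of comparison libraries, and 0.753 to 0.776 between the sets, as a description across genes. Mitochondrial genes took 5.70% to 5.87% of counts in the profile and 6.12% to 6.90% in the comparison. Among the other 10 libraries, 2 numbered 1 (shNELFE DMSO and shCTL HMBA) had CDH1 at 559 to 584 CPM, 3 numbered 1 (shNELFE HMBA and both hairpins with EPZ-5676 alone) had it at 1456 to 1602 CPM, and the remaining 5 at 162 to 204 CPM, so libraries under 1 label differed in these genes beyond the profile. NELFE, the target of the hairpin, was at 245 and 269 CPM in the profile and at 77, 18.4, 79.3 and 21.2 CPM in the comparison. Within the comparison it was therefore low in both shNELFE libraries.

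VIM (chromosome 10, 17228259 to 17237593, hg38) was at 1792 and 1924 CPM in the profile and at 3.16, 4.09, 2.88 and 4.61 CPM in the comparison. In the other 10 libraries it ranged from 0.108 to 8.2 CPM, so the value nearest to the profile was that of shNELFE EPZ-5676 with HMBA replicate 1. CDH1 (chromosome 16, 68737225 to 68835548) was at 0.104 and 0.0977 CPM in the profile and at 100.4, 85.7, 102 and 78.9 CPM in the comparison, which held the lowest value of the other 14 libraries. KRT19, a keratin of simple epithelia, was at 0 and 0.0488 CPM against 1138, 925, 1087 and 1008 CPM. These 3 genes chose the libraries, and their levels are not read as support. They stay in the counts of their gene lists below. FN1 (chromosome 2, 215360440 to 215436172), fibronectin, belongs to the same contrast and is a description too. It was at 4382 and 4562 CPM against 24.3, 19.5, 30.9 and 34.9 CPM, a log2 difference of 7.35 (SE 0.19), and at 4.12 to 92.2 CPM in the other 10 libraries. The label mesenchymal-like holds for VIM and FN1 and does not hold for keratins 7, 8 and 18, as described below. In bulk RNA, fewer cells of a type and less RNA per cell cannot be told apart.

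**Figure D1:**
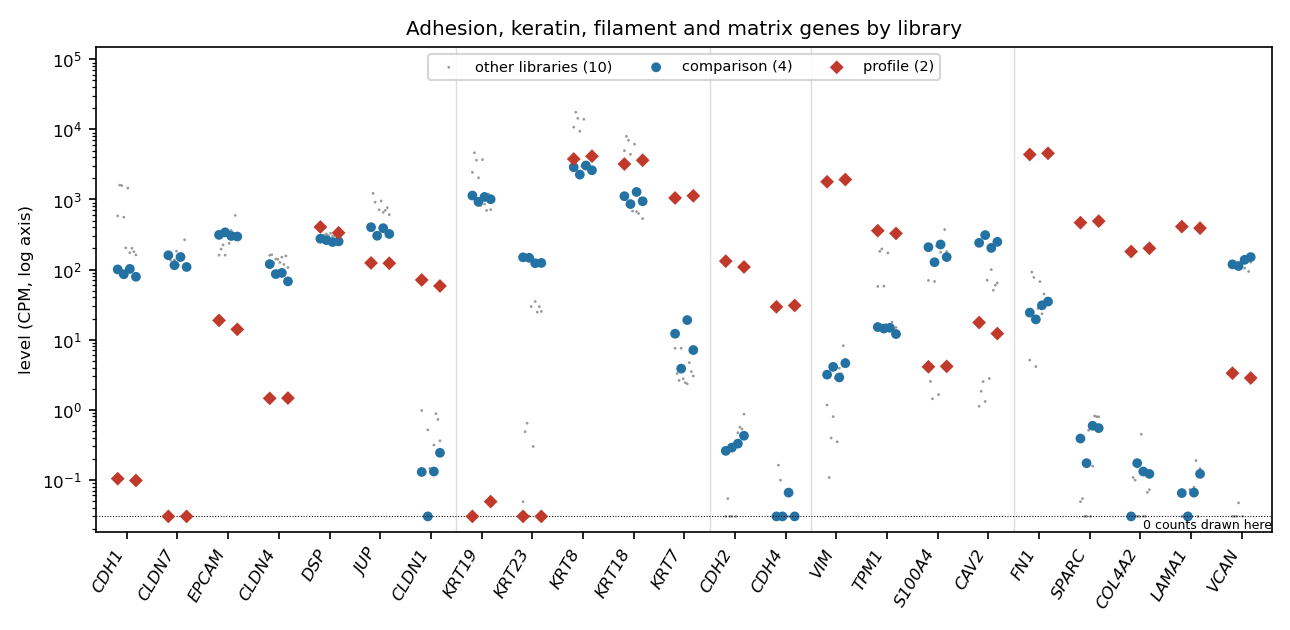
Levels of adhesion, keratin and matrix genes by library, in CPM on a log scale, with 1 point per library: diamonds for the 2 profile libraries, large circles for the 4 comparison libraries and small grey points for the other 10, and 0 counts on the dotted line. CDH2, VIM and FN1 are high in the profile, CDH1, CLDN7 and KRT19 are at or near 0 there, and KRT8 and KRT18 are high in every library.

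Of 26 genes of epithelial junctions, 15 were lower in the profile, 1 was higher and 10 were neither, with a median log2 difference of -2.20 beside 0.02 over all genes tested. Cadherins stood in opposite order to each other. CDH2 (N-cadherin) was at 132 and 109 CPM in the profile and 0.258, 0.288, 0.328 and 0.425 CPM in the comparison, and P-cadherin (CDH3) was at 16.9 and 21.8 CPM against 215, 158, 186 and 145 CPM, a log2 difference of -3.18 (SE 0.19). R-cadherin (CDH4) was at 29.3 and 30.7 CPM, with 1 count in all 4 comparison libraries together, and cadherin 11 (CDH11) was at 6.06 and 6.54 CPM with none.

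The claudins of the tight junction split. CLDN7 had 0 counts in both profile libraries and was at 159.9, 115, 151 and 109 CPM in the comparison, at least 1760.0-fold lower against 3 counts over the set. CLDN4 was at 1.45 and 1.46 CPM against 119.6, 86.2, 89.5 and 67.8 CPM, a log2 difference of -5.95 (SE 0.28). CLDN1 was the exception on the list: 71 and 58.3 CPM in the profile against 0.129, 0, 0.131 and 0.243 CPM in the comparison. CLDN1 was thus high where CLDN4 and CLDN7 were low. MARVELD3, a tight junction membrane protein, had 0 counts against 13.8 to 17.2 CPM, while OCLN (occludin) was at 16.7 and 13.8 CPM against 26.2 to 65.7 CPM and F11R (the adhesion molecule JAM-A) at 55 and 59.4 CPM against 111 to 128 CPM, both short of the 4-fold rule. EPCAM, an adhesion molecule of most carcinomas, was at 18.8 and 14 CPM against 312, 339, 302 and 296 CPM, a log2 difference of -4.25 (SE 0.15), and so was lower but not absent.

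Genes of the desmosome plaque were present in the profile. DSP (desmoplakin), which ties keratin filaments to the desmosome, was at 405 and 335 CPM in the profile and 275, 263, 247 and 252 CPM in the comparison, and all of its 6 values lay within a range smaller than 2-fold. PKP3 was at 88.4 and 100.1 CPM against 77.5 to 115 CPM, EVPL (envoplakin) at 105 and 109.9 CPM against 53.7 to 72 CPM, and JUP (plakoglobin) at 124 and 123 CPM against 304 to 402 CPM. The desmosomal cadherins DSC2 and DSG2 were lower, DSG2 at 78.4 and 45.4 CPM against 285 to 331 CPM. Periplakin (PPL), the partner of envoplakin, was at 0.0518 and 0.0977 CPM against 93 to 198 CPM, 1757-fold lower with a counting interval of 601 to 8522. Of these plaque genes PPL was therefore the 1 near 0.

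Keratins were mixed. Of 15 keratin genes 12 were tested, and 6 were lower, 2 higher and 4 neither, yet the summed level of the list was higher in the profile (8130 to 8999 CPM) than in the comparison (4289 to 5783 CPM). KRT8 was at 3782 and 4141 CPM in the profile and 2883, 2266, 3052 and 2612 CPM in the comparison. Its partner KRT18 was at 3206 and 3629 CPM against 1114, 859, 1281 and 944 CPM, a log2 difference of 1.70 (SE 0.14). The sets did not overlap for either gene, and the profile was the higher, by less than 4-fold. KRT7, a keratin of ductal and glandular epithelia, was at 1051 and 1128 CPM against 12.1, 3.86, 19 and 7.1 CPM, a log2 difference of 6.71 (SE 0.39), and in the other 10 libraries it ranged from 2.35 to 7.54 CPM. Per kilobase of exon, KRT18 stood at 1062 CPM, KRT8 at 576 CPM, VIM at 360.2 CPM and KRT7 at 266 CPM in the mean of the profile, so KRT18 and KRT8 stood above VIM on that scale. KRT23, KRT20, KRT15 and KRT19 were at or near 0, KRT23 with 0 counts against 149, 147, 123 and 124 CPM. In the other 10 libraries KRT23 ranged from 0 to 35.0 CPM. It was at most 0.641 CPM in every replicate 1 library except shNELFE EPZ-5676 with HMBA. Squamous keratins KRT5, KRT14 and KRT6A were too low to test, and KRT17 was at 10.5 and 11.2 CPM against 0 to 0.182 CPM. KRT8 and KRT18 have many near-identical pseudogenes, and their counts may be split among them.

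Regulators that hold the epithelial state were mostly low. Of 16 genes 14 were tested, 10 were lower, none was higher and 4 were neither, with a median of -4.05. EHF, an ETS factor of epithelia, had 0 counts in the profile and 88.4, 87.3, 59.6 and 59.4 CPM in the comparison. GRHL2, a grainyhead factor that activates CDH1 and claudins, had 0 counts against 24.9, 22.6, 18 and 15.6 CPM, at least 268-fold lower. OVOL1, a repressor of ZEB1, had 0 counts against 19.8, 12.7, 13.7 and 11.7 CPM. None of these 3 regulators had a read in either profile library. ELF3 was at 0.104 and 0.488 CPM against 81.1, 35, 74.3 and 25.8 CPM, a log2 difference of -7.45 (SE 0.70).

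The epithelial splicing regulators were low but detected: ESRP1 was at 4.98 and 4.69 CPM against 113, 94.4, 95 and 69.3 CPM, a log2 difference of -4.26 (SE 0.21), and ESRP2 at 1.14 and 1.32 CPM against 69.4, 60.8, 85 and 86.5 CPM, a log2 difference of -5.93 (SE 0.23). The host transcript of the miR-200c cluster, MIR200CHG, had 0 counts against 0.581 to 1.04 CPM, a low level in both sets. KLF4, KLF5 and GRHL1 were lower by less than 4-fold, KLF5 at 30.8 and 21.2 CPM against 48.9 to 65 CPM. OVOL2 was at 1.71 and 2.2 CPM against 0.46 to 0.969 CPM, the only tested gene of the list with the higher mean in the profile.

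Genes of apical membranes and surface proteases followed. Of 21 genes 18 were tested, 14 were lower, 1 higher and 3 neither, with a median of -5.18. RAB25, a small GTPase of apical recycling, was at 0.0518 and 0.0488 CPM in the profile and 67.3, 54.2, 67 and 55.1 CPM in the comparison, 1205-fold lower with a counting interval of 333 to 9952. S100A14, a calcium-binding protein of epithelia, was at 0.207 and 0.195 CPM against 273, 173, 256 and 153 CPM. MAL2 was at 0.259 and 0.195 CPM against 191 to 311 CPM, and the inhibitor SPINT1 at 0.207 and 0.391 CPM against 62.3 to 130.3 CPM, while its target, the protease matriptase (ST14), was at 3.89 and 4.98 CPM against 185 to 259 CPM. SPINT2, EPS8L2 and AP1M2 were not lost: AP1M2, the epithelial clathrin adaptor subunit, was at 74.2 and 91 CPM against 86.6 to 99.4 CPM. MUC1 was the 1 member higher in the profile, at 14.3 and 15.9 CPM against 1.76 to 2.39 CPM.

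Among the named epithelial and comparison-only genes that were lower, 14 showed an E-box that ZEB and SNAI factors bind. The 250 bases before the start were searched, 4 of the 14 promoters are printed, and binding or repression was not tested. Each run is the 250 bases before the start of the gene in RefSeq (GRCh38.p14), read 5′ to 3′ on the strand of the gene, with the motif CAGGTG or its reverse complement CACCTG in capitals. EREG, the EGF family ligand epiregulin, was among the 12 highest genes of the comparison that were absent from the profile, at 0.0518 and 0 CPM against 746, 884, 437 and 550.1 CPM. In the other 10 libraries EREG ranged from 0 to 65.1 CPM.
EREG, chr4:74364895-74365144, + strand: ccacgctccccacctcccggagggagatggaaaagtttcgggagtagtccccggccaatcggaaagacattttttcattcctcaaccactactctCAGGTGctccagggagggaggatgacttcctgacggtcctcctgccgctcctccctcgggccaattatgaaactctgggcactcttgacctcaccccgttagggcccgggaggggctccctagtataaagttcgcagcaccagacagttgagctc
RAB25, chr1:156060910-156061159, + strand: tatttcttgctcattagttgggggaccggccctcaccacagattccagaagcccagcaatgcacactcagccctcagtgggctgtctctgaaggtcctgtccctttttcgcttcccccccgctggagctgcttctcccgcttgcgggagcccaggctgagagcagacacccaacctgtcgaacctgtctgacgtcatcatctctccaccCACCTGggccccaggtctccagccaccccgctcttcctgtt
S100A14, chr1:153616326-153616575, - strand: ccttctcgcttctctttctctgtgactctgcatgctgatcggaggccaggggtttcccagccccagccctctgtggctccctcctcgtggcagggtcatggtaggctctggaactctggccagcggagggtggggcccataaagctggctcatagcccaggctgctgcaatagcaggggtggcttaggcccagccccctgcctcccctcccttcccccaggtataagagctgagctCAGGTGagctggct
ELF3, chr1:202010337-202010586, + strand: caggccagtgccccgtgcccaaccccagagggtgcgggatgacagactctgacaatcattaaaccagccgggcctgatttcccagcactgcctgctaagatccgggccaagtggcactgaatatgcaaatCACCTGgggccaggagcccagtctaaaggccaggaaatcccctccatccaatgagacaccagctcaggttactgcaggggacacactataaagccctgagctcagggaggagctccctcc
The motif starts at base 96 of the run in EREG, 210 in RAB25, 237 in S100A14 and 131 in ELF3. Of 86 genes of the epithelial lists and the 12 highest comparison-only genes, 49 had an entry and 24 of these held the motif in the 300 bases from 250 before to 50 after the start. The motif was held by 20.6% of all 27195 promoters and by 18.6% of those of the genes tested. Only 49 of the 86 genes, 67.0% of the coding comparison-only genes and 73.4% of the coding profile-only genes had an entry. A comparison of motif shares between the sets, or of the 24 of 49 with all promoters, is therefore void. A match is a description of letters.

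The repressors and inducers of the mesenchymal state were present at low levels. Of 16 genes 13 were tested, 6 were higher, none was lower and 7 were neither, with a median of 1.92. Members at or near 0 in the comparison could be tested only through the profile, so the count is not read as support. TWIST2 was at 20 and 21.4 CPM against 0 counts in all 4 libraries, at least 447-fold higher. ZEB2 was at 11.2 and 8.3 CPM against 0, 0, 0 and 0.121 CPM. Both were at or near 0 in the other 10 libraries too, TWIST2 with 0 to 0.144 CPM and ZEB2 with 0 to 0.0626 CPM. ZEB1 was at 4.3 and 3.12 CPM against 0.517, 1.38, 1.05 and 1.82 CPM, a log2 difference of 1.62 (SE 0.36) that did not reach 4-fold. SNAI1 was at 10.5 and 11.7 CPM against 7.75, 7.71, 9.24 and 10.1 CPM, close in both sets, and SNAI2 at 3.63 and 3.76 CPM against 0.288 to 1.31 CPM, a count as higher that was lost against the replicate 2 libraries with HMBA. TWIST1 was at 3.78 and 3.42 CPM against 0.345 to 0.721 CPM. PRRX1 was seen at 1.24 and 0.342 CPM, too low to test, and SOX9 and FOXC1 had lower means in the profile by less than 4-fold. TWIST2 and ZEB2 were thus seen in the profile and hardly elsewhere, and SNAI1 was seen in all 6 libraries.

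Most of the matrix proteins that could be tested were higher. Of 38 genes 30 were tested, 17 were higher, 2 lower and 11 neither, with a median of 5.28. Their summed level was 8922 to 9012 CPM in the profile and 888 to 1193 CPM in the comparison. SPARC, a collagen-binding matrix protein, was at 467 and 491 CPM against 0.388, 0.173, 0.59 and 0.546 CPM, a log2 difference of 10.14 (SE 0.19). TGFBI was at 350.1 and 397 CPM against 0.0646, 0.345, 0.459 and 0.546 CPM. The proteoglycan biglycan (BGN) was at 287 and 308 CPM against 1 count in the comparison. Fibrillin 2 (FBN2) was at 297 and 241 CPM against 0.194 to 0.59 CPM, and fibrillin 1 (FBN1) at 65.5 and 62.6 CPM against 1.64 to 1.84 CPM.

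Basement membrane genes were part of this. The type IV collagen genes COL4A1 and COL4A2, a head to head pair on chromosome 13, were at 69.6 and 64.8 CPM and 181 and 201 CPM in the profile and at most 0.173 CPM in any comparison library. LAMA1, the laminin chain of early basement membranes, was at 410.0 and 389.8 CPM against 0.0646, 0, 0.0655 and 0.121 CPM. The nidogens NID1 and NID2 were at 23.3 and 25 CPM and 32.2 and 27.3 CPM, against 0 to 0.194 CPM for NID1 and 0 counts for NID2. A list of 10 laminin chains and other genes of epithelial basement membranes was mixed. Of its members 2 were higher, LAMA1 and AGRN (agrin, 297 and 288 CPM against 62.2 to 79.3 CPM, within 4-fold of the replicate 2 libraries with HMBA), 1 was lower and 7 were neither. Its summed level was 1422 to 1452 CPM in the profile and 543 to 799 CPM in the comparison, with LAMA1 as the largest part of the profile's sum. LAMA5, LAMB2 and LAMB3 were within 4-fold, and LAMA3 was lower at 3.84 and 2.98 CPM against 12.8 to 20 CPM.

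Fibrillar collagen was uneven. COL1A1 was at 777 and 809 CPM in the profile and 21.1, 9.73, 29.6 and 16.1 CPM in the comparison, a log2 difference of 5.38 (SE 0.28). Its partner in type I collagen, COL1A2, was at 0 and 0.0488 CPM, and COL3A1, COL5A1, DCN, POSTN, THY1 and PDGFRA, which define fibroblasts along with it, were too low to test. COL3A1 was at 0.0518 and 0.244 CPM, THY1 at 0.259 and 0.342 CPM and PDGFRA at 0.104 and 0.195 CPM. Of the 16 fibroblast markers 8 were tested and all 8 were higher, a count that only genes high in the profile could reach, so it is not read as support. The summed level of the list was 919 to 956 CPM against 21.3 to 42.5 CPM, and COL1A1 held most of it. PDPN was at 31.2 and 32 CPM, LUM at 5.44 and 4.2 CPM and FAP at 4.15 and 2.25 CPM, each with 0 counts in the comparison. VCAN went the other way, at 3.32 and 2.83 CPM against 119, 112, 138 and 151 CPM, a log2 difference of -5.40 (SE 0.19).

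Matrix enzymes were higher for 10 of the 22 tested of 25, with 1 lower and 11 neither and a median of 1.63. The interstitial collagenase MMP1 was at 346 and 330.1 CPM against 0.194, 0.115, 0 and 0.243 CPM, and the membrane protease MMP14 at 233 and 259 CPM against 14.7, 11.2, 9.24 and 7.4 CPM, a log2 difference of 4.54 (SE 0.19). The protease ADAMTS12 and the collagen cross-linker LOX had 0 counts in the comparison and were at 40.3 and 38.5 CPM and 13.5 and 11 CPM. MMP7, a matrilysin of glandular epithelia, was the 1 lower member, at 0.0518 and 0.0977 CPM against 6.91 to 10.6 CPM. MMP2 and MMP3 were too low to test.

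Cytoskeletal genes of mesenchymal and contractile cells were higher for 9 of the 22 tested of 25, VIM included, with 2 lower and 11 neither. TAGLN was at 143 and 159 CPM against 4.97, 5.06, 5.9 and 5.82 CPM, a log2 difference of 4.80 (SE 0.12). TPM1 (tropomyosin) was at 359 and 328 CPM against 12 to 15.1 CPM, MYL9 at 218 and 260.2 CPM against 46.7 to 68.4 CPM, and nestin (NES) at 112 and 112 CPM against 14.1 to 16.3 CPM. The neuronal filament gene INA was at 29.3 and 32.6 CPM against 0 to 0.121 CPM. Smooth muscle actin (ACTA2) was at 1.55 and 0.928 CPM against 4.09 to 4.65 CPM, low in both sets. Genes often counted as mesenchymal were lower here: S100A4 was at 4.09 and 4.15 CPM against 209, 127, 228 and 151 CPM, a log2 difference of -5.43 (SE 0.28), and CAV2 at 17.5 and 12.2 CPM against 241, 310.2, 204 and 249 CPM. CAV1 was at 241 and 219 CPM against 572 to 842 CPM, short of 4-fold.

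Surface adhesion genes of mesenchymal cells were split too, with 9 higher, 3 lower and 6 neither among the 18 tested of 26. ENG (endoglin) was at 68.2 and 74.9 CPM against 0.258, 0, 0 and 0.0607 CPM, ICAM1 at 163 and 171 CPM against 6.22 to 8.32 CPM, and MCAM at 347 and 358 CPM against 30.1 to 35.3 CPM. The hyaluronan receptor CD44 was at 414 and 419.7 CPM against 795 to 887 CPM, and NT5E at 94.6 and 72.1 CPM against 217 to 408 CPM, so both were the lower in the profile. Protocadherin 7 (PCDH7) was lower, at 9.17 and 7.47 CPM against 92.1 to 166 CPM, and within 4-fold of the replicate 2 libraries with HMBA (21.4 to 41.8 CPM). Integrins, the receptors for this matrix, were mostly neither (11 of the 17 tested of 19, with 4 higher and 2 lower). ITGA4 was at 11.2 and 9.13 CPM against 0 counts, the fibronectin receptor chain ITGA5 at 135 and 151 CPM against 32.8 to 47.1 CPM, and the collagen receptor chain ITGA2 was lower at 0.933 and 0.879 CPM against 160.4, 127, 90.3 and 76.1 CPM, a log2 difference of -6.96 (SE 0.39). Over the 4 mesenchymal and matrix lists 45 of 92 tested members were higher and 8 lower. Over the 3 epithelial lists of junctions, regulators and membrane genes 39 of 58 tested members were lower and 2 higher, and the keratin list, mixed as described above, is not in that count. Members at or near 0 in 1 set could be tested only through the other set. Genes that chose the libraries are among the members too, so neither the mesenchymal nor the epithelial count is read as support.

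**Figure D2:**
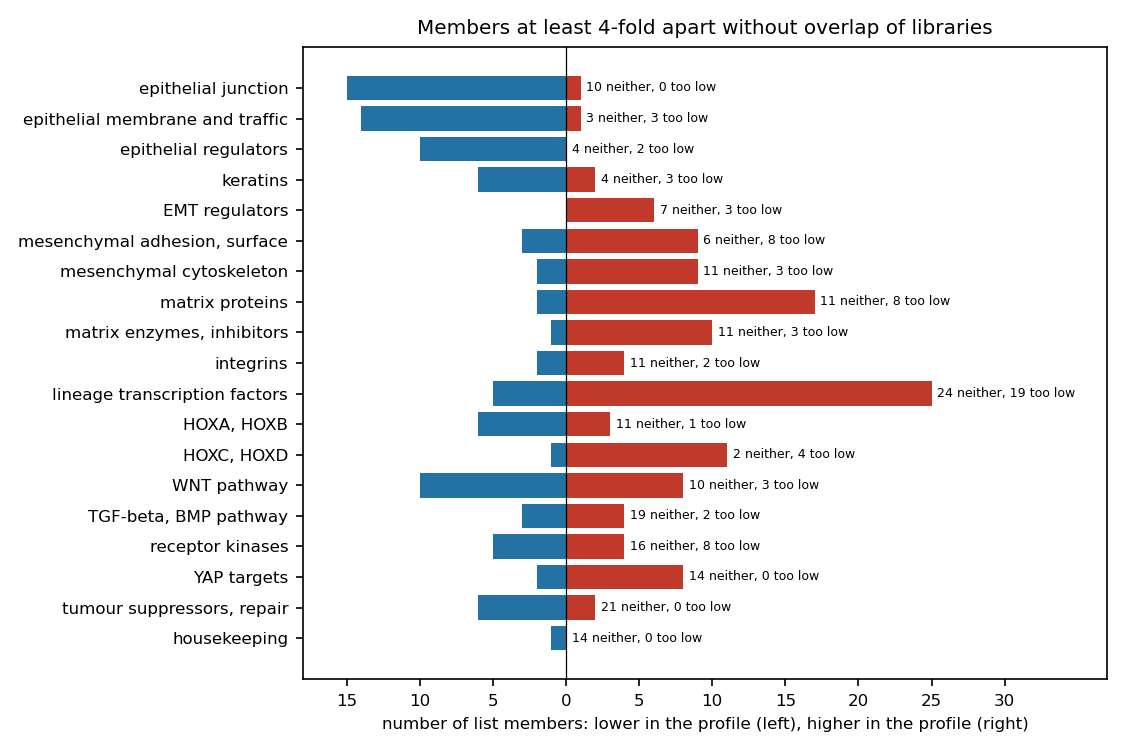
Number of members of each gene list that were lower (bars to the left) or higher (bars to the right) in the profile by the 4-fold rule without overlap, with the number neither or too low to test beside each bar. Matrix protein and lineage factor lists lean to higher, and epithelial lists of junctions, membrane genes and regulators to lower.

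The higher transcription factors of tissue lineages came from several tissues. Of 73 genes 54 were tested, 25 were higher, 5 lower and 24 neither, with a median of 1.85. Of those tested, 11 had 0 counts in 1 set and could be tested only through the other, so the count is not read as support. PAX8, a factor of thyroid, kidney and Mullerian tissues, was at 213 and 231 CPM against 10.9, 10.8, 7.14 and 8.61 CPM, a log2 difference of 4.56 (SE 0.15). NKX2-1, a factor of lung, thyroid and forebrain, was at 19.1 and 18 CPM against 0.0646, 0.0575, 0.197 and 0.0607 CPM, and SIX2, a factor of nephron progenitors, at 16.6 and 17.7 CPM against 0.0607 to 0.115 CPM. The hedgehog effectors GLI3 and GLI2 were at 31.1 and 28 CPM and 42 and 45.3 CPM, against 0 counts for GLI3 and 3.29 to 7.04 CPM for GLI2. FOXL2, an ovarian factor, HAND2, a factor of mesenchyme and heart, and WT1 had 0 counts in the comparison and were at 9.69 and 10.9 CPM, 6.58 and 6.84 CPM and 3.73 and 4.25 CPM. GATA3 was at 18.7 and 15.1 CPM against 0.46 to 1.18 CPM. GATA3 also divided the other 10 libraries, from 0.363 to 1349.9 CPM. Lower factors were NR2F1 at 1.5 and 1.56 CPM against 93.5, 122, 44.7 and 63.5 CPM and MSX2 with 0 counts against 8.32 to 15.3 CPM.

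HOX genes record position along the body axis. In the HOXC and HOXD clusters 11 of the 14 tested of 18 were higher, 1 was lower and 2 were neither. None of the 18 reached 10 CPM in all 4 comparison libraries, so several were tested only because they were high in the profile, and this count is not read as support. HOXC10 was at 21.7 and 22.1 CPM against 1.42, 1.84, 1.31 and 1.21 CPM, and HOXD13 at 5.34 and 6.49 CPM against 0, 0.0575, 0 and 0 CPM. In the other 10 libraries HOXC10 ranged from 0.661 to 35.9 CPM. In the HOXA and HOXB clusters 3 were higher, 6 lower and 11 neither of 20 tested. HOXA9 was at 0.985 and 0.928 CPM against 43.2, 67.4, 52.6 and 62.3 CPM, a log2 difference of -5.87 (SE 0.26), and HOXB9 at 144 and 149 CPM against 16.7, 18.1, 14.6 and 14 CPM, a log2 difference of 3.21 (SE 0.12). HOXC4, HOXC5 and HOXC6 share exons, so their counts may be divided among them.

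**Figure D3:**
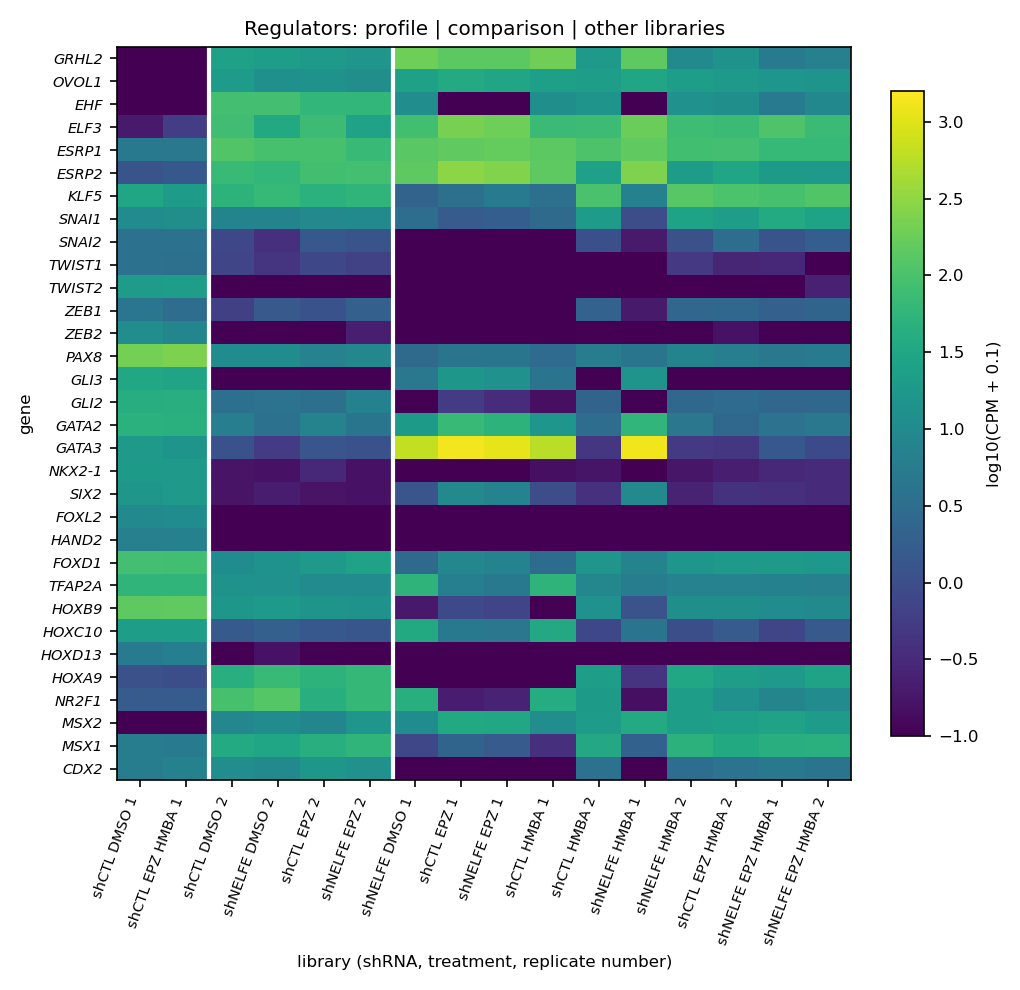
Heatmap of 32 regulator genes (y axis) by library (x axis), coloured by log10(CPM + 0.1), with white lines between the profile, the comparison and the other 10 libraries. GRHL2, OVOL1 and MSX2 are at 0 in the 2 profile columns alone, and FOXL2 and HAND2 are seen there and at 0 in every other library.

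Markers of the labelled tissue were low in both sets. Of 34 genes of gut epithelium 22 had 3 counts or fewer in all 6 libraries, CDX1, VIL1 and CDH17 among those too low to test. CDX2, the intestinal master regulator, was at 6.01 and 6.79 CPM in the profile and 11.2, 10.2, 16.3 and 13.2 CPM in the comparison. FOXA3 was lower, at 0.104 and 0.195 CPM against 3.76 to 6.59 CPM, and VILL was higher. Among the 7 tested, 1 was higher, 2 were lower and 4 were neither.

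Markers of other cell types went both ways, and many defining ones were at or near 0 in the profile. For blood cells, PTPRC and CD3E had 0 counts and SPI1 at most 0.0977 CPM, and the 16 markers summed to 13.1 to 13.9 CPM against 5.87 to 7.08 CPM. Of the 4 tested 2 were higher, 1 lower and 1 neither. Among endothelial genes 9 were tested, 4 higher, 1 lower and 4 neither. CDH5 was at 0 and 0.0977 CPM, TEK at 0.363 and 0.342 CPM and KDR at 0.0518 and 0 CPM, while ROBO4 and ERG were at 8.14 and 9.86 CPM and 5.18 and 3.52 CPM, and the 15 markers summed to 123 to 129.5 CPM against 37.2 to 44.8 CPM, with EGFL7 at 92.2 and 99.9 CPM. For melanocytes SOX10 and TYR had 0 counts, and for skeletal muscle MYOD1 and MYOG had 0 counts. Of 18 neural markers 5 were tested, 2 higher (GAP43 at 1.55 and 1.66 CPM and ISL1 at 3.47 and 2.59 CPM), 1 lower (MAP2) and 2 neither. ELAVL4 had 0 counts and SOX2 was at 0.311 and 0.146 CPM. The list summed to 227 to 239 CPM against 163 to 198 CPM, nearly all from the tubulin gene TUBB3 (220.5 and 233 CPM against 134 to 169.6 CPM). The 7 mesothelial and ductal markers summed to 1502 to 1643 CPM against 36.9 to 81.9 CPM, through KRT7 and mesothelin (MSLN, 435 and 496 CPM against 26.9 to 37.6 CPM). CALB2 was the lower in its mean, at 6.06 and 7.57 CPM against 5.75 to 24.2 CPM. Of 12 kidney and urogenital markers 7 were tested, 4 higher and 3 lower. They summed to 235 to 254 CPM against 12.8 to 16.5 CPM, of which PAX8 made up most in the profile. PAX2, a kidney factor, had 0 counts against 1.73 to 2.91 CPM, and CDH16 was too low to test. Of 11 breast and prostate markers 6 were tested, 4 higher and 2 neither, with a sum of 64.1 to 68.7 CPM against 9.78 to 12.7 CPM. TRPS1 was at 13.5 and 9.67 CPM and the progesterone receptor gene PGR at 3.63 and 3.86 CPM, both with 0 counts in the comparison, while the prostate genes KLK2 and KLK3 had 0 counts in the profile. Of 9 lung and thyroid markers 3 were tested, 2 higher and 1 neither, with a sum of 21.2 to 21.8 CPM against 0.849 to 2.36 CPM, in the profile mostly from NKX2-1. In each of these lists, members at or near 0 in 1 set could be tested only through the other set. None of the counts of cell type markers is therefore read as support. How far another cell type bears on the result was not tested.

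Further lists hold few tested genes, and a member could mostly pass the filter through the set in which it is high. Of 10 squamous markers 4 were tested, 1 was higher (TRIM29, 5.03 and 5.81 CPM against 0.0607 to 0.23 CPM) and 3 were neither. Of 12 bone and cartilage markers 6 were tested, with ALPL, the alkaline phosphatase, higher at 14.1 and 17.2 CPM against 0.115 to 0.197 CPM and SPP1 (osteopontin) lower at 0 and 0.0977 CPM against 4.46 to 8.55 CPM. Of 13 liver markers 3 were tested, and CPS1, an enzyme of the urea cycle, was lower at 0.207 and 0.146 CPM against 41.4, 39.8, 33.7 and 30.7 CPM. Cardiac actin (ACTC1) was the 1 higher member of the muscle markers, at 27.6 and 34.1 CPM against 0 counts. Of 11 pluripotency and germ cell genes 10 had 3 counts or fewer in all 6 libraries, and SALL4 was at 5.34 and 6.1 CPM against 0.182 to 0.518 CPM.

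RNA-binding regulators of splicing differed beyond the ESRP genes: of 15 genes 14 were tested, 3 were higher, 6 lower and 5 neither. Members at or near 0 in 1 set could be tested only through the other set, so this count is not read as support. The muscleblind genes were lower, MBNL1 at 25.9 and 20.9 CPM against 186, 181, 142 and 143 CPM, a log2 difference of -2.80 (SE 0.16), and MBNL2 at 13.1 and 13.3 CPM against 115, 130.1, 90.9 and 116 CPM, a log2 difference of -3.10 (SE 0.16). NOVA1, a neuronal splicing factor, and ELAVL2, a neuronal RNA stabiliser, were at 10.1 and 8.59 CPM and 10.1 and 8.84 CPM against 0 counts, and CELF2 was at 12.9 and 9.77 CPM against 0 to 0.115 CPM. Among secreted factors 6 of 21 were tested, 2 higher, 2 lower and 2 neither, under the same limit. IL32 was at 72.8 and 82.5 CPM against 0, 0, 0.0655 and 0 CPM, and the cytokine LIF at 16.6 and 14.7 CPM against 202, 149, 123 and 105 CPM, a log2 difference of -3.21 (SE 0.25). Against the replicate 2 libraries with HMBA the LIF difference had the other sign, 1.12.

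Signalling genes went both ways. Among 28 tested WNT genes of 31, 8 were higher, 10 lower and 10 neither. The ligands WNT5A and WNT5B were at 59.8 and 49.9 CPM and 51.7 and 56.1 CPM, against 0 to 0.131 CPM and 0.121 to 0.403 CPM. FZD2, a receptor for WNT5A, was at 115 and 124 CPM against 5.23, 5.41, 5.24 and 5.16 CPM, a log2 difference of 4.50 (SE 0.11). The inhibitors parted: DKK3 was at 225 and 225 CPM against 0.0646 to 1.09 CPM, and DKK1 at 34.7 and 31.3 CPM against 694, 642, 743 and 687 CPM, a log2 difference of -4.39 (SE 0.13). DKK1 was within 4-fold of the replicate 2 libraries with HMBA, at 66.6 to 172 CPM there. RNF43, which removes WNT receptors, was at 0.881 and 0.928 CPM against 54, 61.2, 30.8 and 43.2 CPM. TCF7L2 was at 11.5 and 10.9 CPM against 85.4 to 113 CPM. AXIN2 overlapped between the sets, at 4.72 and 3.96 CPM against 3.68, 5.29, 5.9 and 8.55 CPM. WNT16 had 0 counts against 108, 169, 65.9 and 107 CPM.

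In the TGF-beta and BMP pathway 4 of 26 tested genes were higher, 3 lower and 19 neither. These shares, 15.4% higher and 11.5% lower, were close to the 13.6% and 13.5% over all genes tested. BMP4 was at 2.54 and 3.66 CPM against 343, 368, 435 and 534 CPM, a log2 difference of -7.07 (SE 0.26). ID2 was at 0.311 and 0.195 CPM against 46.9 to 80.1 CPM. ID1 (54 and 58 CPM against 74.7 to 96.2 CPM) and ID3 (19 and 18.7 CPM against 41.1 to 55 CPM) were lower by less than 4-fold. Targets of YAP and TAZ were higher for 8 of 24 and lower for 2, with a median of 1.52: CCN1 was at 621 and 559.7 CPM against 53.9 to 99.5 CPM, and AMOTL2 at 664 and 614 CPM against 115 to 136 CPM. Neither was counted as higher against the replicate 2 libraries with HMBA, where CCN1 was at 120.2 to 322 CPM and AMOTL2 at 155 to 173 CPM. One of the 2 profile libraries carries an HMBA label. Receptor kinases were mostly neither (16 of the 25 tested of 33, with 4 higher and 5 lower). Their shares were 16% higher and 20% lower, beside 13.6% and 13.5% over all genes tested. AXL, a receptor often high in mesenchymal cells, was at 749 and 861 CPM against 143, 120.4, 117 and 110.5 CPM, a log2 difference of 2.71 (SE 0.11). IGF1R was at 93.7 and 91.6 CPM against 9.84 to 14.6 CPM, and ranged from 10.9 to 387 CPM in the other 10 libraries. MET was lower, at 51.6 and 39.5 CPM against 424, 473, 309 and 359.6 CPM, a count lost against the replicate 2 libraries with HMBA (104 to 175 CPM), and FGFR2 had 0 counts against 13.7 to 16.7 CPM.

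Cell cycle and repair genes differed in a few members, 2 higher and 6 lower of 29. CDKN2A, which encodes the inhibitor p16, was at 410.0 and 440.1 CPM against 14.5, 16.2, 11.4 and 11.3 CPM, a log2 difference of 4.99 (SE 0.14). RB1, the pocket protein that p16 acts through, was at 1.5 and 0.684 CPM against 44.9, 53.9, 33.6 and 43.6 CPM, a log2 difference of -5.33 (SE 0.30). CDKN2A was thus high where RB1 was low. NF2 was at 14.1 and 14.6 CPM against 156 to 168 CPM, and BRCA1 at 7.31 and 5.62 CPM against 39.5 to 52.4 CPM. CDKN1A and MDM2, both targets of p53, were lower, MDM2 at 22.8 and 22.6 CPM against 134, 139, 135 and 128 CPM.

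The following lists of ubiquitin, MHC class I, chromosome 15q, RB and p53 genes were added after the values had been seen. Among 17 tested RB pathway genes 1 was higher and 3 were lower, and among 24 tested p53 targets 2 were higher and 7 lower. GDF15 was at 0 and 0.0488 CPM against 21.9 to 33.1 CPM, while TP53I3, also a p53 target, was higher at 121 and 133 CPM against 6.46 to 8.17 CPM. UBB (chromosome 17, 16380798 to 16382745), 1 of the polyubiquitin genes, had 0 counts in both profile libraries and was at 771, 659, 767 and 686 CPM in the comparison and 752 to 1307 CPM in the other 10, at least 9519.9-fold lower. Of the 4 ubiquitin genes listed, UBB was the 1 past 4-fold. UBB has near-identical pseudogenes, and how reads were divided among them was not given in the sources used here.

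B2M, the light chain of MHC class I, was at 14.6 and 14 CPM against 297, 304, 299 and 274 CPM, a log2 difference of -4.36 (SE 0.12). It was the 1 of 15 housekeeping genes past 4-fold. HLA-C was lower too, at 17.3 and 18.6 CPM against 119 to 143 CPM, and HLA-B was higher, at 146 and 167 CPM against 30.9 to 43.5 CPM. Of 13 genes of MHC class I and its loading 2 were higher, 2 lower and 9 neither. That is 15.4% each way, close to the 13.6% and 13.5% over all genes tested. HLA genes are near-identical to one another and vary between genomes, so their counts are uncertain. Of 7 imprinted genes on chromosome 15q 5 were higher and 1 lower: NDN and MAGEL2 had 0 counts in the comparison and in the other 10 libraries and were at 69.8 and 79.3 CPM and 16.1 and 18.9 CPM. SNRPN was at 329 and 365 CPM and the overlapping SNHG14 at 239.9 and 190.3 CPM. MKRN3, in the same imprinted region, had 0 counts in the profile against 3.21 to 5.98 CPM.

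Presence and absence were also counted over all genes. At 10 CPM or more in both profile libraries there were 8673 genes, and 257 of them (2.96%) had 3 counts or fewer in each comparison library. In the reverse direction 101 of 8889 genes (1.14%) were present only in the comparison, and 7364 were at 10 CPM or more in all 6. Of the 257 profile-only genes 233 were coding, and 106 (41.2%) had 3 counts or fewer in each of the other 10 libraries as well. Of the 101 comparison-only genes 32 (31.7%) were at 10 CPM or more in all of the other 10. A gene of the profile could thus be present in some of the other libraries, as CBS was: 351 and 370.4 CPM in the profile, 1 count in the comparison, and 0 to 225 CPM in the other 10.

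The 12 protein-coding profile-only genes with the highest mean CPM came from varied tissues and include LAMA1, BGN, COL4A2, SNRPN and CBS, given above. UCHL1, a neuronal ubiquitin hydrolase, was at 799 and 850.2 CPM against 0 counts, at least 17774-fold higher. NNMT, nicotinamide N-methyltransferase, was at 592 and 722 CPM against 0 counts in the comparison and in the other 10 libraries. The neurofilament gene NEFH was at 371 and 365 CPM against 1 count, AEBP1 at 293 and 310.5 CPM against 0 to 0.0607 CPM, and the lysosomal enzyme GALC at 283 and 213 CPM against 0 to 0.0607 CPM. TRIM58 and the selenoprotein GPX3 were at 348 and 279.8 CPM and 164 and 209 CPM against 0 counts. In the other 10 libraries GALC ranged from 0 to 55.1 CPM and GPX3 from 0 to 83.6 CPM.

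Comparison-only genes at the top of the order included KRT19, UBB, KRT23, PPL and CLDN7, described above. CYP24A1, the vitamin D hydroxylase, had 0 counts in the profile against 365, 412, 373 and 463 CPM. The neurotensin receptor NTSR1 had 0 counts against 259.6, 249, 274 and 284 CPM, MALL 0 counts against 271 to 322 CPM and HS3ST1 0 counts against 145 to 168 CPM. LPCAT1 was at 0.104 and 0 CPM against 132 to 151 CPM, and at 144 to 466 CPM in the other 10. MAGEB2 and MAGEA3, cancer-testis genes of the X chromosome, had 0 counts against 125 to 132 CPM and 103 to 116 CPM. PRAME, also a cancer-testis gene, was higher in the profile at 245 and 265 CPM against 33.6 to 36.2 CPM. MAGEA3 and MAGEA6 are near-identical, so their counts are uncertain.

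Differences were not even over the chromosomes. Over the 11180 genes with a mean of at least 5 CPM the median log2 difference was -0.02. By chromosome, the share of these genes that were lower ran from 3.83% on chromosome 22 to 34.2% on chromosome 13. The shares over all genes tested belong to a different set of genes. No share was computed over the 11180 genes together, so chromosomes are set only beside each other. Chromosome 1, with 1134 genes, had 9.44% lower and 5.82% higher. On chromosome 13 the median was -1.42 over 184 genes, of which 63 (34.2%) were lower and 8 higher. On chromosome 18 the median was -0.92 over 162 genes (22.8% lower). On chromosome 4 it was -0.75 over 376 genes (17.6% lower), and on chromosome 10 it was -0.68 over 429 genes (22.6% lower). Chromosomes 11 and 20 both had a median of 0.49, and chromosome 19 had 0.40. RB1 lies on chromosome 13. COL4A1 and COL4A2 on chromosome 13 and LAMA1 and CDH2 on chromosome 18 stood high against these medians. DNA copy number was not measured.

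**Figure D4:**
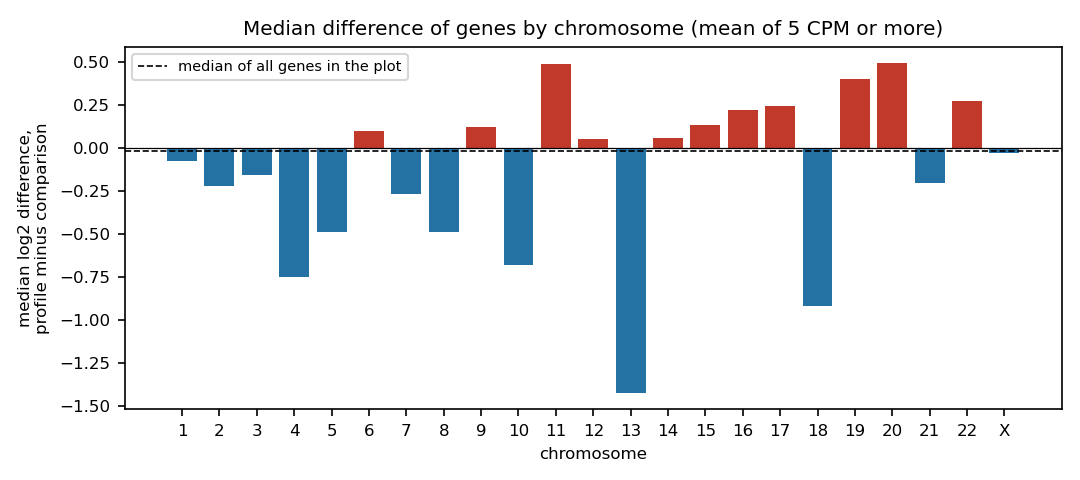
Median log2 difference (profile minus comparison) by chromosome as bars from 0, for genes with a mean of at least 5 CPM, with a dashed line at the median of all genes plotted. Chromosomes 13, 18, 4 and 10 lie lowest, and chromosomes 11 and 20 highest.

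The label genes of the study differed as well. MYC was at 179 and 167 CPM in the profile against 818, 644, 793 and 729.9 CPM, a log2 difference of -2.11 (SE 0.12). Against the 4 replicate 2 libraries with HMBA, an alternative added after seeing the data, the MYC difference was 1.83 and so of the other sign. DOT1L, the target of EPZ-5676, was at 34.7 and 38.2 CPM against 73.2 to 94.7 CPM, short of 4-fold, and HEXIM1, an inhibitor of P-TEFb that HMBA is known to induce, was at 66.5 and 64 CPM against 65.4 to 81.9 CPM. NELFE was higher by 2.40 (SE 0.46) on the log2 scale, and that count as higher is lost when only the 2 shCTL libraries are compared.

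Because the 2 profile libraries carry the labels shCTL DMSO and shCTL EPZ-5676 with HMBA, they can be set against the same pair in replicate 2, with 1 library against 1 and no replicate check. In the profile pair 25 of 12238 genes with 50 counts or more were at least 2-fold higher with both compounds and 63 were at least 2-fold lower (0.719% in all). In replicate 2 it was 1086 higher and 1701 lower of 12005 genes (23.2%). The profile pair differed beyond counting error, with a mean chi-square of 11.7 per gene over 14756 genes, where the pairs of comparison libraries gave 10.1 to 22.3, and the 2 were counted as separate libraries. The chi-square covers counting error only. HEXIM1 had a ratio of 0.963 (95% counting interval 0.891 to 1.04) in the profile pair and 4.45 (4.19 to 4.74) in replicate 2. MYC had 0.937 (0.894 to 0.983) and 0.0394 (0.0360 to 0.0430), and CDKN1A 1.11 (0.971 to 1.27) and 4.66 (4.42 to 4.91). For these 3 genes the pair in the profile was close to 1, and the pair in replicate 2 was far from it.

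Over genes chosen for their value in replicate 2 the picture was the same. Of 162 genes at least 4-fold higher with both compounds in replicate 2, 1 was at least 2-fold higher in the profile pair (the histone gene H4C15) and 1 lower (H4C14), and their median log2 ratio was 2.48 in replicate 2 and 0.01 in the profile. Of 329 genes at least 4-fold lower, 2 were at least 2-fold lower in the profile pair (ZC3HAV1L and SMIM11) and 2 higher (HTR1D and BCL2L2-PABPN1), with medians of -2.46 and 0.01. These 6 genes were chosen after their values were seen, and H4C14 and H4C15 are near-identical copies. Among genes outside the naming rule, chosen for their ratio in replicate 2, CCN2 had a ratio of 1.02 in the profile pair and 29.2 in replicate 2, and BMP4 had 1.44 (0.993 to 2.11) and 0.0352. Within the profile pair the gene ENSG00000279809, listed without a symbol, went from 0 to 184 counts, H4C15 from 0 to 80, UTP14C from 71 to 0, CCDC180 from 12 to 53 and BRCA2 from 18 to 57. MATR3, under 1 of its identifiers, went from 390 to 90 counts and SMIM11 from 156 to 48, so such ratios were not limited to genes of few counts.

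**Figure D5:**
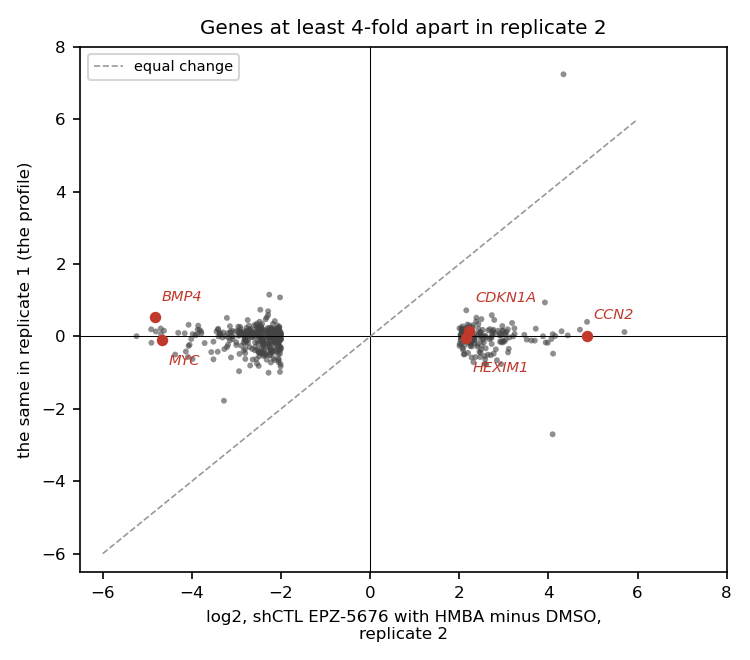
Log2 ratio of shCTL EPZ-5676 with HMBA to shCTL DMSO in the profile pair (y axis) against the same ratio in replicate 2 (x axis), for 491 genes at least 4-fold apart in replicate 2, with a dashed line where both would be equal. All but 6 genes lie within 2-fold on the y axis, and both groups of genes have a median of 0.01 there.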

How the data were processed

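The deposited table holds whole-number read counts per gene for 16 libraries, made by the authors without normalization: 60676 genes, none unnamed. Per the submitters' processing notes the build was hg38 and the tools named, without their roles, include HTSeq 0.6.1p1, STAR 2.4.0b and Cufflinks 2.1.1. For the counting, the annotation release and strand setting were not given in the sources used here, so overlapping and near-identical genes are uncertain. Totals ran from 13428893 to 21319666 counts. Symbols were matched for 60357 identifiers and GENCODE 29 positions for 58503.

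From the counts, edgeR 4.0.16 (R 4.3.3) gave TMM-scaled CPM over all 16 libraries, a low-count filter (15686 genes kept) and a quasi-likelihood fit of the 6 libraries with 4 residual degrees of freedom, used for log2 differences and SEs and not for p-values, since the libraries were chosen from these counts. Self-tests on simulated data recovered every changed gene. Where a set had 0 counts the fold is a bound against 3 counts over that set. Where a set had few counts, it is a ratio with an exact binomial 95% interval, which covers counting error only, as do the floors of 3 counts. A gene was present at 10 CPM in every library of a set and absent at 3 counts or fewer in every library of the other. Alternatives used DESeq2 1.42.0, limma 3.58.1 and other scalings, filters, thresholds and libraries.

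The members and gene lists were chosen with earlier results of these data known. Some list members are counted but not reported by name here. Named genes were, per list, up to 6 with the largest difference and 4 with the highest level, the 12 highest protein-coding genes present in 1 set only (the limit to protein-coding genes was added to the rule and put GPX3 in place of SNHG14), the 8 largest ratios each way in the pair, the targets of the labels and the cell type markers. Chosen after their values were seen were the added ubiquitin, MHC class I, 15q, RB and p53 lists, and ACTA2, AP1M2, AXIN2, CAV2, CDH3, CDH16, COL5A1, DSC2, EPS8L2, EVPL, F11R, FBN1, FBN2, GLI2, GRHL1, HOXC5, ID1, ID3, ITGA5, KLF4, KLK2, KLK3, KRT5, KRT6A, KRT14, MAGEA6, MIR200CHG, MMP2, MMP3, MUC1, MYL9, NES, NID1, NID2, NR2F1, OCLN, OVOL2, PCDH7, PKP3, POSTN, PRRX1, RNF43, TCF7L2, VCAN and ZEB1.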

Additional observations from a re-analysis of the deposited data

Results flagged for a closer look

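With both compounds against DMSO, 5 genes had log2 ratios of opposite sign, beyond counting error alone, in the profile pair and in the replicate 2 pair. Each pair is 1 library against 1, and the difference was not tested. NELFE was at log2 0.13 in the profile pair and -0.22 in replicate 2. NELFA was at 0.20 and -1.19. NELFB was at 0.081 and -0.32. NELFCD was at 0.12 and -0.46, and CDK9 at 0.11 and -0.31. In the profile all 5 values were above 0 and below 0.34, the SD of the log2 ratio over the genes of that pair. In replicate 2 that SD was 1.04, and of the 5 genes only NELFA lay further than that from 0. No group has the 4 libraries needed to look for a sample far from the others.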

How the results depend on the processing

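At 2-fold 4009 genes were higher and 4252 lower, and at 8-fold 1135 were lower. At 20 CPM 152 genes were profile-only and 62 comparison-only, and at 0 counts 128 and 67. The profile pair gave 223 genes apart at 20 counts or more and 18 at 200 counts or more. Leaving out 1 library at a time gave 2131 to 2228 genes higher, 2017 to 2443 lower, 261 to 273 profile-only, 101 to 113 comparison-only, 36 to 39 epithelial members lower and 44 to 46 mesenchymal members higher. No paired analysis was possible because both profile libraries are numbered 1 and all comparison libraries are numbered 2, so they share no number.

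Without a filter on low counts the median of the haematopoietic markers turned to -0.41 and that of the cancer-testis genes to 0.081, since more genes were tested. Against all 8 replicate 2 libraries CCN2 turned to -0.71 and EPHB3 to -1.13. Against the 4 replicate 2 libraries with HMBA, added after seeing the data, 8 genes turned: CCN2 -1.68, EPHB3 -2.06, F3 1.80, HOXA11 1.80, LIF 1.12, MAFA -0.24, MYC 1.83 and SESN2 -0.72. The cause was not tested. Of 306 named genes counted as higher or lower, 10 lost the count with unscaled totals (among them SNAI2, MYL9 and HLA-B), 12 against shCTL libraries alone (NELFE, SNAI2 and HLA-B among them), 14 without shCTL EPZ-5676 with HMBA replicate 1 (DSG2 and MYL9 among them), 28 against all 8 replicate 2 libraries, and 43 against the 4 with HMBA (SNAI2, ISL1, HLA-B, HOXC5, MIR200CHG, AGRN, CCN1, AMOTL2, PCDH7, DKK1 and MET among them). The median over all genes was -0.20 with unscaled totals and 0.10 with RLE size factors from edgeR. At 3 counts a library reads 0.141 to 0.223 CPM, and levels below that cannot be told from 0.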
